A study of Homo sapiens with 6 samples.

Results

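The high mobility group (HMG) genes HMGA1, HMGA2, HMGB1, HMGB2, HMGB3, HMGN1, HMGN2, HMGN3, HMGN4 and HMGN5 were followed in HCT116, a cell line from a human colorectal carcinoma. They were chosen by gene symbol, and all 10 were found among the 26255 symbols of the deposited tables. They comprise 2 HMGA, 3 HMGB and 5 HMGN genes. Messenger RNA was sequenced from 3 libraries of cells described as positive for ZsGreen fluorescence and 3 libraries of cells described as negative. The series title ties the cells to the ornithine decarboxylase degron, a peptide tag through which the proteasome takes up proteins that carry no ubiquitin, and to models of cancer stem cells. All libraries come from the same cell line, and the labels give no drug, time point, clone or sorting step. The labels do not say whether libraries stem from separate cultures. The p-values therefore rest on the spread among the 6 libraries, and that spread may be technical. The titles name the libraries of each group in a style of its own. If each group was also a batch, batch and ZsGreen state cannot be told apart.

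HMG proteins are small, abundant chromatin proteins that change the shape of DNA or of the nucleosome rather than switching on single genes. HMGA proteins grip the minor groove of AT-rich DNA with short AT-hook motifs. They are plentiful in embryonic cells and in many tumours, and HMGA2 is a well-known target of let-7 microRNAs. HMGB proteins carry a pair of HMG boxes that bend DNA, and HMGB1 is also a danger signal once it leaves the cell. HMGN proteins bind the nucleosome core and counter the compaction brought about by the linker histone H1.

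The estimated depth was 12100000 to 13500000 fragments in the ZsGreen-positive and 9250000 to 9730000 fragments in the ZsGreen-negative libraries. Genes listed at 0 numbered 10314, 11624 and 11989 in ZsGreen-positive replicates 1 to 3, and 8985 to 9162 in the ZsGreen-negative libraries. The group estimated as deeper thus had more genes at 0, so the depth estimates are uncertain. ZsGreen-positive replicates 2 and 3 stood apart among weakly expressed genes. The share of single-transcript genes at 1 estimated fragment, out of those at 1 to 8, was 8.93% in replicate 2 and 10% in replicate 3. It was 27.7% for the other ZsGreen-positive library and between 29.1% and 35.5% for the ZsGreen-negative ones. This share is computed from the estimated depth, and whether an error in that estimate lowered it in replicates 2 and 3 was not tested. Results for the HMG genes are therefore also given without ZsGreen-positive replicates 2 and 3, which leaves ZsGreen-positive replicate 1. The spread within groups then comes from the ZsGreen-negative libraries alone, so calls and p-values of that fit are weak evidence. Of 6 markers of colorectal epithelium, 2 were called higher, 3 lower and 1 was not tested, in the fit described below. The adhesion protein CDH1 fell, and was at 16.5 to 19.0 FPKM in ZsGreen-positive and 49.5 to 50.4 FPKM in ZsGreen-negative libraries (log2 fold change -1.47, adjusted p = 5.46e-06). The keratins KRT18 and KRT8 were lower as well, with log2 fold changes of -0.66 (adjusted p = 0.000287) and -0.40 (adjusted p = 0.0012). CDX2, a transcription factor of the gut, was higher, with a log2 fold change of 0.54 (adjusted p = 0.0103). EPCAM was at 138 to 152 FPKM in ZsGreen-positive and 126 to 133 FPKM in ZsGreen-negative libraries (log2 fold change 0.18, adjusted p = 0.0321), while VIL1 was at 0 in the ZsGreen-positive and at most 0.0377 FPKM in the ZsGreen-negative libraries. The sum over all 6, most of it from the keratins, was 2134 to 2431 FPKM in ZsGreen-positive and 3167 to 3227 FPKM in ZsGreen-negative libraries, and the part of these marker differences in the HMG results was not tested. Summed over 3 leukocyte markers, the level was 0 in the ZsGreen-positive and at most 0.0525 FPKM in the ZsGreen-negative libraries. Markers of 2 other cell types were low as well, with sums of 0.0638 to 0.171 FPKM in ZsGreen-positive and 0.0334 to 0.126 FPKM in ZsGreen-negative libraries for endothelium. The fibroblast sum was 0.588 to 1.12 FPKM in ZsGreen-positive and 2.02 to 2.23 FPKM in ZsGreen-negative libraries, all of it from COL1A1, with COL1A2 and DCN at 0.

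The HMGB genes had more transcript in ZsGreen-positive than in ZsGreen-negative cells, by unequal amounts, led by HMGB2 at 6.06 times the level. HMGB1, HMGB3 and HMGN2 were at 2.72, 1.91 and 1.97 times the level, and HMGA2, HMGN3 and HMGN1 were raised by less. HMGN4 was lower, at 0.70 times the level, and HMGA1 did not pass the test. HMGN5 was barely expressed. FPKM (fragments per kilobase and per 1000000 mapped fragments) corrects for gene length, which allows a rough comparison of levels between genes. Reads that match several gene copies can be misplaced, so such comparisons are uncertain for HMGB1, HMGN2 and HMGN4. Differences were tested with limma on log2(FPKM + 1) over all 12213 genes with a mean of at least 1 FPKM, and a gene passed at a Benjamini-Hochberg adjusted p under 0.05. Of the 10 HMG genes 9 met this minimum, and of these 7 rose, 1 fell and 1 did not pass. Among all tested genes 59.4% passed, with 29.4% that rose and 30.0% that fell. The median log2 fold change, positive minus negative, was 0.52 over the 9 HMG genes and 0.0040 over the 12213 genes. In bulk libraries a change in the share of cells that express a gene and a change in RNA per cell cannot be told apart.

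**Figure D1:**
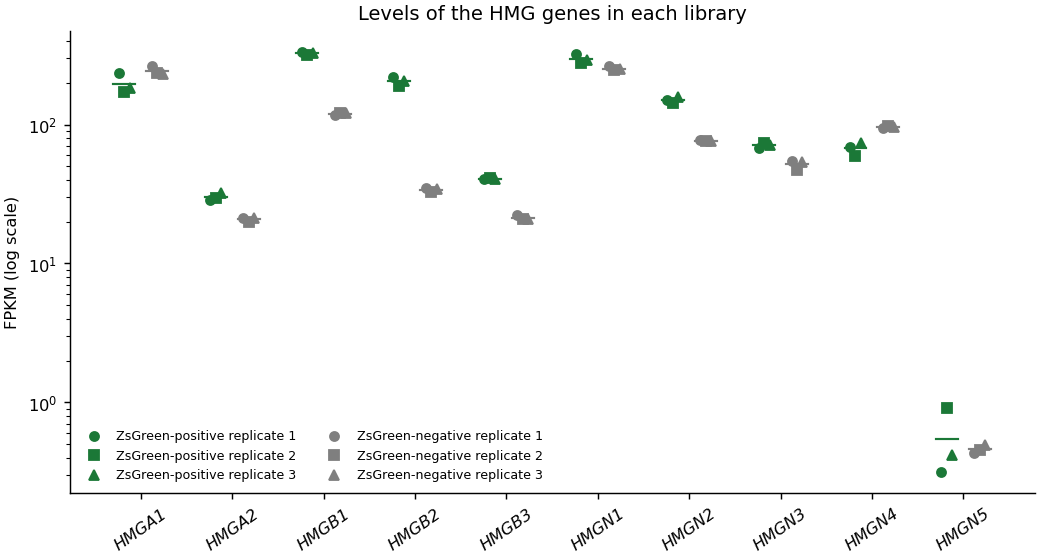
Level of each HMG gene in FPKM (log axis) in each library. Points are libraries, with marker shape giving the replicate and horizontal bars the group mean; ZsGreen-positive libraries (green) stand left of ZsGreen-negative ones (grey). HMGB2 lies at 190 to 220 FPKM in the positive and 32.4 to 35.2 FPKM in the negative libraries, whereas HMGN5 stays under 1 FPKM in both.

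HMGB2 encodes the HMGB protein best known from dividing cells. It was at 220.2, 190.3 and 207 FPKM in ZsGreen-positive replicates 1 to 3, against 35.2, 32.4 and 34.3 FPKM in ZsGreen-negative replicates 1 to 3. Every positive library lay far above every negative one. On average HMGB2 had 206 ± 15.0 FPKM in ZsGreen-positive and 34.0 ± 1.41 FPKM in ZsGreen-negative cells (SD, n = 3 each). The log2 fold change was 2.56 ± 0.0714 (SE, adjusted p = 5.44e-07), with a 95% interval of 2.40 to 2.73. Of the tested genes 98.6% had a lower log2 fold change. Without ZsGreen-positive replicates 2 and 3 the log2 fold change of HMGB2 was 2.66, from 1 positive library.

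HMGB1, the most abundant HMGB and the form that acts as an extracellular alarm signal, was at 331, 318 and 326 FPKM in the ZsGreen-positive and 117, 120.3 and 120.7 FPKM in the ZsGreen-negative libraries. The groups were far apart and each was tight. The means were 325 ± 6.79 FPKM in ZsGreen-positive and 119 ± 1.92 FPKM in ZsGreen-negative cells, a log2 fold change of 1.44 ± 0.0495 (SE, adjusted p = 1.36e-06). HMGB1 has many processed pseudogenes in the genome, and reads that match several copies could have been placed elsewhere, so its absolute level is uncertain.

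HMGB3, known from embryonic and blood precursor cells, was lower throughout. It reached 40.2, 41.2 and 40.7 FPKM in ZsGreen-positive libraries and 22.3, 20.8 and 20.8 FPKM in ZsGreen-negative libraries. The log2 fold change was 0.90 ± 0.0627 (SE, adjusted p = 2.16e-05), and the groups did not overlap. All 3 HMGB genes therefore rose, but by unequal amounts. The ratio of HMGB2 to HMGB1, taken from their FPKM values, was 0.665, 0.599 and 0.635 in ZsGreen-positive and 0.3001, 0.2695 and 0.2844 in ZsGreen-negative libraries. This ratio is not changed by a single scaling factor per library. It was higher in every ZsGreen-positive library (two-sided exact permutation test, p = 0.1, the lowest value possible with 3 against 3). Of 7 such ratios computed, 6 had groups that did not overlap, each with p = 0.1 in this exact test and 0.117 after Benjamini-Hochberg adjustment over the 7. The ratio of HMGB3 to HMGB1 went the other way, 0.125 ± 0.0042 in ZsGreen-positive and 0.178 ± 0.0101 in ZsGreen-negative libraries (SD, n = 3 each; two-sided exact permutation test, p = 0.1). The 7 pairs were not among the planned tests and were chosen with earlier results of these data known. No share over other gene pairs was computed. Over single tested genes the groups did not overlap for 67.6%, so these ratios are descriptions only.

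HMGN1 was the most abundant HMGN gene in both groups. It had 322, 277 and 290.4 FPKM in ZsGreen-positive libraries and 262, 246 and 250.1 FPKM in ZsGreen-negative libraries. The groups did not overlap, but the gap between them was smaller than the range of the positive libraries. HMGN1 rose with a log2 fold change of 0.23 ± 0.0693 (SE, adjusted p = 0.0242) in the deposited values, and the sign turned to -0.14 (adjusted p = 0.0715) with quantile normalisation. The call was lost without ZsGreen-negative replicate 2 (adjusted p = 0.0946) or replicate 3 (adjusted p = 0.0845). Over the tested genes 62.4% had a lower log2 fold change than HMGN1.

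HMGN2, a close relative of HMGN1 with the same nucleosome-binding mode, was at 151, 143 and 158 FPKM in the ZsGreen-positive and 77.8, 76.0 and 75.9 FPKM in the ZsGreen-negative libraries. Every positive library was well above every negative one. The log2 fold change was 0.96 ± 0.0582 (SE, adjusted p = 1.14e-05).

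HMGN4, encoded by an intronless gene that closely resembles HMGN2, moved in the opposite direction. It was at 69.2, 59.2 and 73.7 FPKM in ZsGreen-positive libraries, against 94.4, 98.3 and 95.9 FPKM in ZsGreen-negative libraries. HMGN4 fell, with a log2 fold change of -0.51 ± 0.0859 (SE, adjusted p = 0.0016). This call was lost, at -0.10 (adjusted p = 0.364), when the libraries were scaled to a common sum without ribosomal protein and small RNA genes. The ratio of HMGN2 to HMGN4, which a single factor per library does not change, was 2.18, 2.41 and 2.15 in ZsGreen-positive and 0.825, 0.773 and 0.791 in ZsGreen-negative libraries (two-sided exact permutation test, p = 0.1). HMGN2 was thus the higher of the pair in every positive library and the lower in every negative one. Reads shared by HMGN2 and HMGN4 could have been split between them, so the single values are uncertain.

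HMGN3 was at 67.4, 74.1 and 70.7 FPKM in ZsGreen-positive and 54.5, 47.3 and 53.3 FPKM in ZsGreen-negative libraries, without overlap. Its log2 fold change was 0.45 ± 0.0750 (SE, adjusted p = 0.0016). The antisense gene HMGN3-AS1 was at 0.366 to 0.969 FPKM in ZsGreen-positive and 0.314 to 0.697 FPKM in ZsGreen-negative libraries. Whether the counting used strand is not given in the sources used here, so reads of the 2 genes may not be separated.

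HMGN5, an X-linked HMGN gene with a long acidic tail, was the only member under the minimum of 1 FPKM and was not tested with the others. Its values were 0.314, 0.906 and 0.421 FPKM in ZsGreen-positive and 0.432, 0.454 and 0.495 FPKM in ZsGreen-negative libraries, and the groups overlapped. At the estimated depth this is 3.80 to 11.4 fragments per kilobase in ZsGreen-positive and 4.2 to 4.67 in ZsGreen-negative libraries. With all genes tested regardless of level, its log2 fold change was 0.06 ± 0.15 (SE, adjusted p = 0.748). A difference was not detectable at this depth.

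HMGA1, the HMGA gene that is abundant in many carcinomas, was at 234, 171 and 182 FPKM in the ZsGreen-positive and 264, 233 and 229.6 FPKM in the ZsGreen-negative libraries. ZsGreen-positive replicate 1 lay within the range of the negative libraries, and the other 2 positive libraries lay below it. The log2 fold change was -0.32 ± 0.12 (SE, adjusted p = 0.0559), with a 95% interval of -0.61 to -0.0322 before adjustment over genes. Without ZsGreen-positive replicate 1 it was -0.46 (adjusted p = 0.0036), and with that library as the only positive one it was -0.05 (adjusted p = 0.657). It was 0.10 (adjusted p = 0.33) with scaling that leaves out ribosomal protein and small RNA genes.

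HMGA2, which is usually silent in adult epithelium, was clearly expressed in both groups. It was at 28.6, 29.8 and 32.1 FPKM in ZsGreen-positive libraries and 21.2, 20.0 and 21.2 FPKM in ZsGreen-negative libraries. The groups did not overlap, and the log2 fold change was 0.52 ± 0.0725 (SE, adjusted p = 0.000686). The ratio of HMGA2 to HMGA1 was 0.122, 0.174 and 0.177 in ZsGreen-positive and 0.0801, 0.0858 and 0.0924 in ZsGreen-negative libraries (two-sided exact permutation test, p = 0.1).

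**Figure D2:**
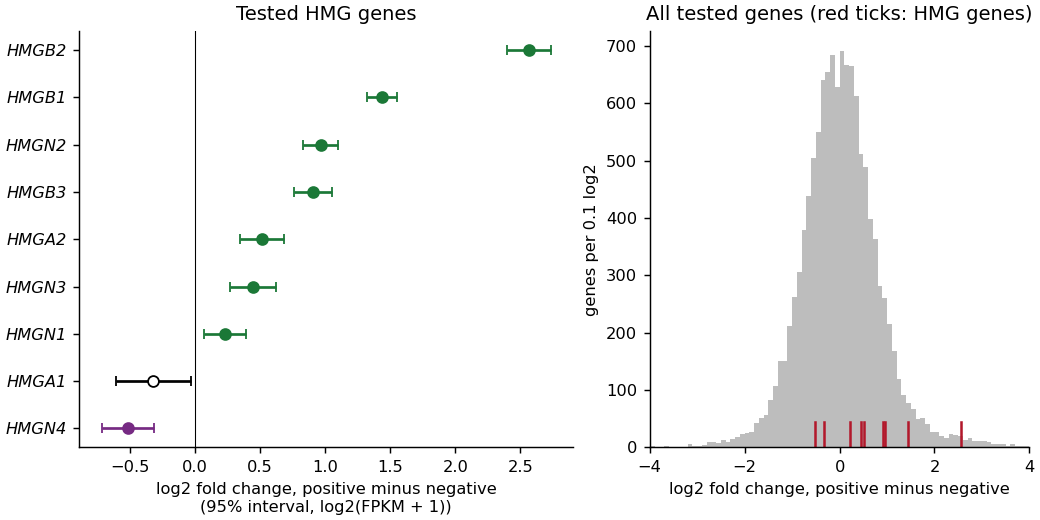
Left, log2 fold change of the 9 tested HMG genes, positive minus negative, from log2(FPKM + 1), with 95% intervals that are not adjusted over genes; green rose, purple fell, and the open circle (HMGA1) did not pass at an adjusted p of 0.05. Right, the log2 fold changes of all 12213 tested genes in bins of 0.1 log2, with the HMG genes as red ticks: HMGB2 at 2.56 and HMGB1 at 1.44 lie in the right tail.

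Only HMGB2 and HMGB1 among the 9 tested genes passed with a log2 fold change of at least 1, a bound that 9.48% of all tested genes reached. The groups did not overlap, with the positive libraries higher, for the 7 genes that rose, and with the positive libraries lower for HMGN4. Over all tested genes the groups did not overlap for 67.6%, with 33.2% higher and 34.5% lower. Without ZsGreen-positive replicates 2 and 3 the test called 7 HMG genes higher and 1 lower, while it called 4404 of all 12213 genes higher and 4413 lower. The log2 fold changes were then 1.46 for HMGB1, 0.97 for HMGN2, 0.89 for HMGB3, 0.44 for HMGA2, 0.38 for HMGN3, 0.35 for HMGN1 and -0.47 for HMGN4. The spread of the positive libraries is then taken to be that of the negative ones.

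How far the HMG genes lay from 0 depended on the scaling. Rescaling every library to a sum of 1000000 put the median over the 12213 genes at 0.142. Leaving ribosomal protein and small RNA genes out of that sum put it at 0.368. Of the genes called, 62.1% were then higher with the full sum and 76.8% with the reduced one, compared with 49.5% for the values as deposited. With the reduced sum the log2 fold changes of HMGA2, HMGN3 and HMGN1 were 0.93, 0.86 and 0.65. Those of HMGB2, HMGB1, HMGN2 and HMGB3 were 2.99, 1.86, 1.38 and 1.32. HMGB2, HMGB1, HMGB3, HMGN2, HMGA2 and HMGN3 rose and passed under each of 18 alternative settings.

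**Figure D3:**
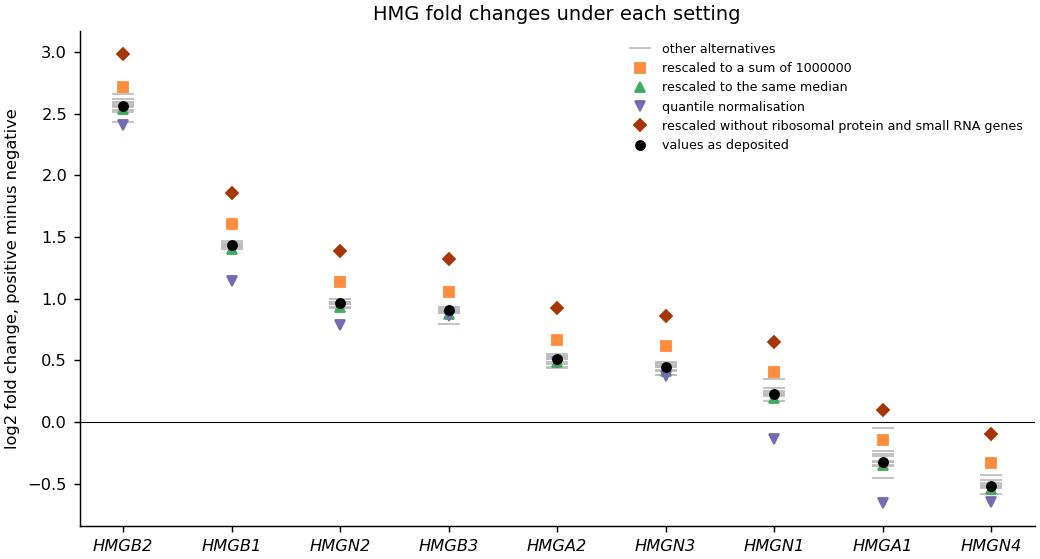
Log2 fold change, positive minus negative, of each tested HMG gene under the deposited values (black) and 18 alternatives, with the 4 rescalings marked by shape and colour and the rest as grey bars. The 6 genes from HMGB2 to HMGN3 stay above 0 throughout, while HMGN1 and HMGA1 each change sign under 1 rescaling, at -0.14 and 0.10.

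The order of the HMG genes by level differed between the groups. In ZsGreen-positive cells HMGB1 stood first at 325 FPKM and HMGN1 next at 296 FPKM, with overlapping ranges over the libraries. HMGB2 and HMGA1 followed at 206 and 195 FPKM and also overlapped. Below them came HMGN2 at 151 FPKM, HMGN3 and HMGN4 at 70.7 and 67.4 FPKM with overlapping ranges, HMGB3 at 40.7 FPKM, HMGA2 at 30.2 FPKM and HMGN5 at 0.547 FPKM. In ZsGreen-negative cells HMGN1 stood first at 253 FPKM and HMGA1 next at 242 FPKM, with overlapping ranges. HMGB1 followed at 119 FPKM, HMGN4 at 96.2 FPKM, HMGN2 at 76.6 FPKM, HMGN3 at 51.7 FPKM and HMGB2 at 34.0 FPKM. HMGB3 and HMGA2, at 21.3 and 20.8 FPKM, overlapped, and HMGN5 came last at 0.46 FPKM. HMGB2 thus stood in rank 3 in positive and rank 7 in negative cells. The places of HMGB1, HMGN2 and HMGN4 in this order rest on uncertain absolute levels.

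Summed over the 10 genes, the level was 1383 ± 79.7 FPKM in ZsGreen-positive and 915 ± 29.6 FPKM in ZsGreen-negative libraries. Within this sum, HMGB genes held 40.4%, 42.1% and 41.6% in the ZsGreen-positive and 18.4%, 19.4% and 19.5% in the ZsGreen-negative libraries. HMGA genes held 17.9%, 15.4% and 15.5% in ZsGreen-positive and 30.1%, 28.3% and 27.8% in ZsGreen-negative libraries. The HMGN share was 41.7%, 42.5% and 43.0% in ZsGreen-positive and 51.5%, 52.3% and 52.7% in ZsGreen-negative libraries. HMGB transcripts thus stood level with HMGN transcripts in positive cells and well under them in negative cells. HMGB2 alone held 14.9% ± 0.249 of the sum in ZsGreen-positive and 3.71% ± 0.0888 in ZsGreen-negative libraries (SD, n = 3 each). Within the HMGN family HMGN1 held 50.6% ± 2.00 in ZsGreen-positive and 52.9% ± 0.561 in ZsGreen-negative libraries. HMGN2 held 25.7% ± 0.967 and HMGN4 11.5% ± 0.881 of the HMGN sum in ZsGreen-positive libraries, against 16.0% ± 0.18 and 20.2% ± 0.85 in ZsGreen-negative libraries. These shares rest in part on the uncertain absolute levels of HMGB1, HMGN2 and HMGN4. They are descriptions of the members and were not tested.

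**Figure D4:**
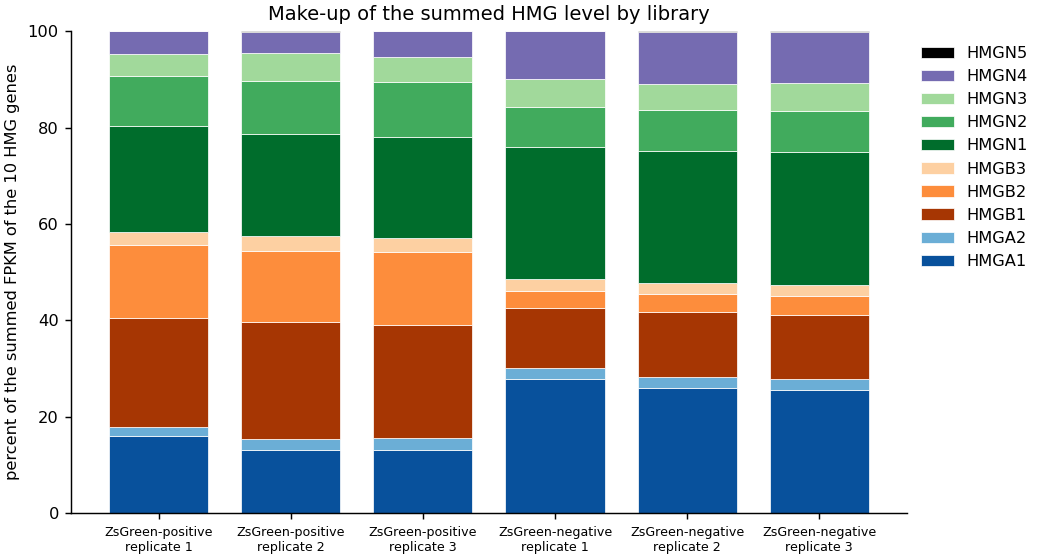
Share of each HMG gene in the summed FPKM of the 10 genes, in percent, as stacked bars per library with the ZsGreen-positive libraries on the left. HMGB1 and HMGB2 (dark and mid orange) fill more of the bar in the positive libraries, and HMGA1 (dark blue) and HMGN4 (purple) less; HMGN5 is too small to see.

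Promoter sequences of RefSeq (GRCh38.p14) were matched by symbol for 8 of the 10 members, all but HMGA2 and HMGB2. The 250 bases before the first listed start of each gene were searched for 4 motifs. HMGB1, HMGB3 and HMGN2 are shown as the members with the largest rises among those matched, and HMGN4 as the member that fell. Capitals mark the CCAAT box (CCAAT, either strand) and the CHR element (TTTGAA, either strand), motifs often found in promoters of cell cycle genes.
HMGB1, chr13:30465937-30466186, minus strand: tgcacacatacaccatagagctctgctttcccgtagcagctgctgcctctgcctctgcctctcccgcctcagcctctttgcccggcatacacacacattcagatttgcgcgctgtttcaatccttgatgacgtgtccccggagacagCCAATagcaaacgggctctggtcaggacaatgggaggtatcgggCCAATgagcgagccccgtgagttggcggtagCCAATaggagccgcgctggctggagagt
HMGB3, chrX:150983085-150983334, plus strand: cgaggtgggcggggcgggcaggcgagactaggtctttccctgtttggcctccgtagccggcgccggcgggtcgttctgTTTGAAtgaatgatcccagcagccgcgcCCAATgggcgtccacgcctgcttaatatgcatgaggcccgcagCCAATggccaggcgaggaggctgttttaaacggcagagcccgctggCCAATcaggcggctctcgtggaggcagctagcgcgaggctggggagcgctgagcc
HMGN2, chr1:26472190-26472439, plus strand: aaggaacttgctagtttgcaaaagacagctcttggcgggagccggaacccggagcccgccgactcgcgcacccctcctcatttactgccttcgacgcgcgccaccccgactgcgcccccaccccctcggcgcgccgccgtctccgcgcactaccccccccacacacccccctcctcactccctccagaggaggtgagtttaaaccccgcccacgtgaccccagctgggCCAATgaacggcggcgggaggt
HMGN4, chr6:26538116-26538365, plus strand: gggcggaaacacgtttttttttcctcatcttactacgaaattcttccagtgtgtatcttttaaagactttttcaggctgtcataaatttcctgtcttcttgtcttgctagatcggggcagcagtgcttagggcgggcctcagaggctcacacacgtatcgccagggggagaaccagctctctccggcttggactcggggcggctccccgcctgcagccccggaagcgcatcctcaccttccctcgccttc
The HMGB1 sequence holds 3 CCAAT boxes and that of HMGB3 holds 3 as well, together with 1 CHR element. HMGN2 holds 1 CCAAT box and HMGN4 none. Of the other members matched, HMGN1 and HMGN3 hold 2 each, and HMGA1 and HMGN5 none. A CCAAT box was thus present in 5 of 8 matched members, against 33.0% of 27305 promoters of the same length. The CHR element was present in 1 of the 8, against 13.6% of all promoters. The E2F element (TTTGGCGC, TTTCCCGC, TTTCGCGC or TTTGCCGC, either strand) and the TATA box (TATAAA, either strand) were in none of the 8, against 2.79% and 11.1% of all promoters. None of these motifs overlapped another in the 8 sequences. The table lists 3 starts for HMGB1, 2 for HMGB3 and 2 for HMGA1, and the other starts differ. Those of HMGB1 hold 1 and 0 CCAAT boxes, with 1 CHR element at the second start, that of HMGB3 holds 0 and that of HMGA1 holds 1. These matches describe the letters in the window, say nothing of binding, and were not tested against the changes in level.

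Proteins that share the HMG box, or act with HMG proteins, gave a mixed picture. The counts for this and the following lists stand beside 29.4% of all tested genes that rose and 30.0% that fell. Of 18 other HMG-box proteins 15 were tested, of which 6 rose, 3 fell and 6 did not pass, with a median log2 fold change of 0.0945. HMG20B, a subunit of a histone demethylase complex, rose to 64.3 ± 6.91 FPKM in ZsGreen-positive cells, against 32.9 ± 0.768 FPKM in ZsGreen-negative cells (log2 fold change 0.94, adjusted p = 7.43e-05). WHSC1, a histone methyltransferase, and UBTF, a factor of ribosomal RNA transcription, rose with log2 fold changes of 0.83 (adjusted p = 0.000165) and 0.71 (adjusted p = 0.00075). BBX fell to 15.1 ± 0.389 FPKM in ZsGreen-positive cells, against 30.5 ± 0.642 FPKM in ZsGreen-negative cells (log2 fold change -0.97, adjusted p = 1.86e-05). The calls of these 4 genes held under each of the 4 rescalings, while scaling without ribosomal protein and small RNA genes gave 9 of the list higher and 1 lower, with 5580 of all 12213 genes higher and 1689 lower. Under that scaling the log2 fold change of BBX was -0.57 and that of UBTF 1.12. The list's median was 0.0474 without ZsGreen-positive replicates 2 and 3.

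Among 9 SOX and TCF/LEF transcription factors, which bind DNA through an HMG box in a sequence-specific way, 5 were tested. SOX4, common in progenitor cells, rose to 105 ± 2.11 FPKM in ZsGreen-positive cells, against 56.4 ± 0.916 FPKM in ZsGreen-negative cells (log2 fold change 0.88, adjusted p = 1.05e-05). SOX9, a factor of intestinal crypt cells, fell to 6.57 ± 0.915 FPKM in ZsGreen-positive cells, against 20.9 ± 0.915 FPKM in ZsGreen-negative cells (log2 fold change -1.54, adjusted p = 2.22e-05). TCF7L2, a partner of beta-catenin, fell with a log2 fold change of -0.30 (adjusted p = 0.0306), which was -0.13 (adjusted p = 0.394) with each library scaled to sum to 1000000 and 0.0727 (adjusted p = 0.689) with scaling without ribosomal protein and small RNA genes. The other 2 tested genes did not pass, and the list's median was -0.30. It was 0.0727 under that scaling and -0.0508 without ZsGreen-positive replicates 2 and 3.

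HMGN and HMGB proteins share chromatin with linker histones. Of 10 linker histone genes 5 were tested, of which 2 rose and 3 fell, with a median log2 fold change of -0.71. H1F0, the variant of resting and differentiated cells, fell to 58.6 ± 1.70 FPKM in ZsGreen-positive cells, against 138 ± 3.60 FPKM in ZsGreen-negative cells (log2 fold change -1.22, adjusted p = 3.40e-06). H1FX fell to 31.5 ± 4.70 FPKM in ZsGreen-positive cells, against 51.9 ± 6.38 FPKM in ZsGreen-negative cells (log2 fold change -0.71, adjusted p = 0.0025). With scaling without ribosomal protein and small RNA genes the call of H1FX was lost, at -0.30 (adjusted p = 0.0843), and H1F0 was at -0.81. HIST1H1E rose with a log2 fold change of 0.39 (adjusted p = 0.0283) in the deposited values, but the sign turned to -0.0045 with quantile normalisation, under which 0 of the list rose and 4 fell. It was 0.80 with scaling without ribosomal protein and small RNA genes, and 0.66 without ZsGreen-positive replicates 2 and 3. HIST1H1T was listed at 0.681, 0 and 0 FPKM in ZsGreen-positive and 3.43, 2.34 and 1.41 FPKM in ZsGreen-negative libraries (log2 fold change -1.47, adjusted p = 0.0047), and it did not pass without ZsGreen-positive replicates 2 and 3 (-0.97, adjusted p = 0.0654). Replication-dependent histone messages largely lack a poly(A) tail, which the library kit selects for, so their levels are uncertain.

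The SET complex, in which HMGB2 is a known subunit, gave 3 members that rose and 2 that did not pass of 5 tested, with a median log2 fold change of 0.24. Among all tested genes 59.4% passed, and 29.4% rose. NME1, a nuclease and nucleoside diphosphate kinase of this complex, rose to 889 ± 25.4 FPKM in ZsGreen-positive cells, against 298 ± 15.9 FPKM in ZsGreen-negative cells (log2 fold change 1.57, adjusted p = 1.94e-06). ANP32A rose to 84.2 ± 4.32 FPKM in ZsGreen-positive cells, against 43.7 ± 1.95 FPKM in ZsGreen-negative cells (log2 fold change 0.93, adjusted p = 2.41e-05). SET itself rose with a log2 fold change of 0.24 (adjusted p = 0.0054) in the deposited values, with the sign reversed at -0.16 under quantile normalisation, which gave 2 of the list that rose and 1 that fell. It was 0.42 with each library scaled to sum to 1000000, and 0.66 when that sum left out ribosomal protein and small RNA genes. In the fit without ZsGreen-positive replicates 2 and 3 the list's median was 0.582, which is the value of TREX1. TREX1 was at 6.88, 3.93 and 2.58 FPKM in ZsGreen-positive replicates 1 to 3, and its log2 fold change over all libraries was -0.02.

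Of 6 receptors of secreted HMGB1 only 2 reached the minimum level, of which 1 fell and 1 did not pass. The list's median log2 fold change was -1.02. CXCR4, which binds HMGB1 together with a chemokine, fell to 1.22 ± 0.506 FPKM in ZsGreen-positive cells, against 6.21 ± 0.138 FPKM in ZsGreen-negative cells (log2 fold change -1.72, adjusted p = 0.000198). AGER, the receptor RAGE, was at 0.812, 1.45 and 1.66 FPKM in ZsGreen-positive and 1.42, 1.66 and 2.50 FPKM in ZsGreen-negative libraries (adjusted p = 0.262). TLR2 and TLR4 were listed at 0 in every library.

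HMGA2 is repressed by let-7, whose maturation LIN28 proteins block and DICER1 carries out. Of the 6 genes of this axis 3 were tested, of which 1 rose and 2 fell, with a median log2 fold change of -0.61. LIN28B was listed at 0, 0.167 and 0 FPKM in ZsGreen-positive and 0, 0 and 0.0181 FPKM in ZsGreen-negative libraries. DICER1 fell to 6.33 ± 0.602 FPKM in ZsGreen-positive cells, against 12.3 ± 0.173 FPKM in ZsGreen-negative cells (log2 fold change -0.86, adjusted p = 0.000199). IGF2BP3, an RNA-binding protein of fetal tissue and tumours, rose to 20.3 ± 1.10 FPKM in ZsGreen-positive cells, against 9.27 ± 0.0974 FPKM in ZsGreen-negative cells (log2 fold change 1.06, adjusted p = 2.64e-05). IGF2BP2, a known target of HMGA2, fell with a log2 fold change of -0.61 (adjusted p = 0.000356). With scaling without ribosomal protein and small RNA genes the call of IGF2BP2 was lost, at -0.21 (adjusted p = 0.0642), and DICER1 was at -0.50 (adjusted p = 0.0186). Mature let-7 was not measured by these libraries.

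All 10 genes of a proliferation list rose, with a median log2 fold change of 2.98 and a range of 0.87 to 3.46. PCNA alone set the low end, and the next lowest gene, MKI67, was at 1.52. HMGB2, at 2.56, lay above MKI67 and below the list's median. HMGB1, HMGN2 and HMGB3, at 1.44, 0.96 and 0.90, lay between PCNA and MKI67. MKI67 was at only 8.61 FPKM in ZsGreen-positive and 2.34 FPKM in ZsGreen-negative cells, so the 1 FPKM added before taking logs shrinks its change. The ratio of means was 3.68 for MKI67, against 2.72 for HMGB1 and 6.06 for HMGB2. CDK1, the kinase of mitotic entry, rose by 3.33 on the log2 scale (adjusted p = 1.90e-07) and BIRC5, which encodes survivin, by 3.30 (adjusted p = 1.09e-06). AURKB, the mitotic kinase aurora B, and MCM5, a subunit of the replicative helicase, rose by 3.46 (adjusted p = 1.84e-06) and 3.11 (adjusted p = 2.00e-06). The part of proliferation in the HMG differences was not tested.

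**Figure D5:**
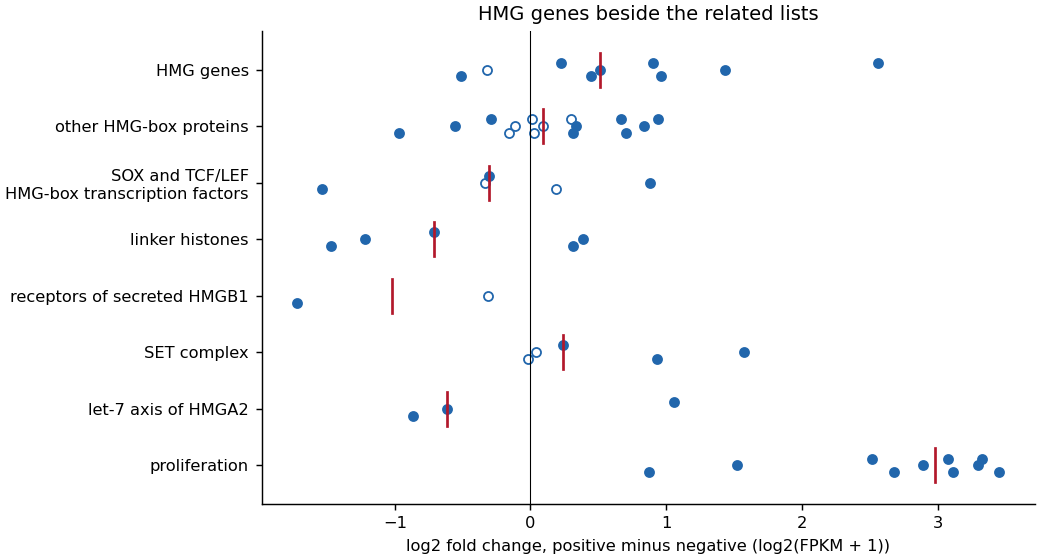
Log2 fold change, positive minus negative, of the tested HMG genes and of each tested gene of the 7 related lists; filled circles passed at an adjusted p of 0.05, open circles did not, and red bars are list medians. The HMG genes have a median of 0.52, between the other HMG-box proteins at 0.0945 and the proliferation list at 2.98.

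The genes whose pattern over the 6 libraries was most like that of HMGB2 were sought by Euclidean distance between log2(FPKM + 1) profiles, each centred on its own mean. They were NUSAP1, a protein of the mitotic spindle, at a distance of 0.13, RRM1, the large subunit of ribonucleotide reductase, at 0.159, and CDC25C, a phosphatase of mitotic entry, at 0.223. NUSAP1 was at 61.6, 48.4 and 54.1 FPKM in ZsGreen-positive and 8.38, 8.43 and 8.43 FPKM in ZsGreen-negative libraries. CDC25C was at 11.54 to 12.38 FPKM in ZsGreen-positive and only 1.186 to 1.455 FPKM in ZsGreen-negative libraries. Its ratio of means was 9.10, against 6.06 for HMGB2, so its nearness partly reflects the 1 FPKM added before taking logs. For HMGN4 the nearest were SYPL1 at 0.067, NCOA2 at 0.0731 and PPAP2A at 0.0845. SYPL1 was at 24.8, 20.5 and 26.9 FPKM in ZsGreen-positive and 35.2, 35.2 and 34.8 FPKM in ZsGreen-negative libraries. These distances mostly reflect the difference between the groups and are descriptions only. The files also list 5 other symbols of the HMGA, HMGB and HMGN series. HMGA1P7, HMGN2P46 and HMGB4 were listed at 0 in every library, and HMGB3P1 was above 0 only in ZsGreen-negative replicate 1, at 0.132 FPKM.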

How the data were processed

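The authors deposited 1 table of FPKM values for each library. According to the labels' protocols, TRIzol and a miRNeasy Micro kit gave the RNA, and a TruSeq Stranded mRNA kit gave the libraries. The submitters' processing notes name hg19, Cuffdiff 2.2.1, TopHat2 2.1.1, SAMtools 0.1.18 and Bowtie2 2.2.8. Settings, annotation, scaling between libraries and strand use were not given in the sources available here.

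The groups were compared by limma 3.58.1 (R 4.3.3; lmFit, then eBayes with trend, two-sided) on log2(FPKM + 1). All 12213 genes with a mean of at least 1 FPKM entered, with Benjamini-Hochberg adjustment and a threshold of 0.05. There were 4 residual degrees of freedom and 3.22 prior ones. The scale understates changes of low genes, and an exact 0 can be a failed estimate. The code of the limma fit was tested on simulated data.

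Depth was estimated in replicate 1 of each group from the FPKM worth of 1 fragment, over 2137 genes with a single GENCODE transcript of at least 1000 nt. The other replicates were tied to it by the commonest ratio of low values, taken near equality. These depths are estimates, and no count model was run.

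The genes named are the 10 members, the cell type markers, up to 4 passing genes with the largest change from each related list, and the 3 genes nearest in profile to the members with the highest and lowest log2 fold change. Which markers are given singly was chosen after their values were seen. AGER, HIST1H1C, LIN28B, TLR2, TLR4 and the other HMG symbols were added in the same way. Members, lists and the pairs of genes for the ratios were chosen with earlier results of these data known. The alternatives tried were other pseudocounts, level filters, rescalings, no trend, a replicate block, and leaving out libraries. Python 3.11.15, NumPy 2.4.6, SciPy 1.17.1 and pandas 2.3.3 were used.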

Additional observations from a re-analysis of the deposited data

How the results depend on the processing

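Of 162 values of the 9 tested HMG genes under 18 alternatives, 152 kept both direction and call. The level filters, the fit without trend and the replicate block leave each log2 fold change as it was. Direction could not change under them, so this count overstates how firmly the results hold. HMGA1 passed with libraries rescaled to the same median (-0.35), with quantile normalisation (-0.66) and with a replicate block (-0.32), and turned to 0.10 when scaling left out ribosomal protein and small RNA genes. HMGN4 was at -0.10 there and did not pass. HMGN1 turned to -0.14 with quantile normalisation and did not pass without the mean-variance trend (0.23). The cause was not tested. Leaving out 1 library at a time gave -0.46 to -0.23 for HMGA1 and 0.17 to 0.28 for HMGN1. Over the alternatives 7 to 9 HMG genes and 5939 to 8817 of all genes were called, against 8 and 7258. Scaling without ribosomal protein and small RNA genes called 5580 genes higher and 1689 lower, against 3590 and 3668.

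Same-numbered libraries did not deviate together (correlations across genes of their deviations from the group means of -0.0211, -0.0301 and -0.0209). Such correlations cannot show whether these libraries were collected or processed together. With the replicate block 6915 genes and 9 HMG genes passed. Low depth limits HMGN5 most, at an estimated 3.80 to 11.4 fragments per kilobase in the ZsGreen-positive libraries.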
